A study of Mus musculus with 8 samples.

Results

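Predicted gene models carry a Gm number until the locus is named. The models examined here were the autosomal Gm models whose mean FPKM (fragments per kilobase of gene, scaled to the mapped reads of the library) over all 8 libraries was above 10, and they numbered 216 of the 25574 genes in the table and 216 of its 3682 autosomal Gm models. The models were chosen by their mean FPKM over both datasets. The rule did not use the difference between the datasets, but 40 models passed with a mean above 10 in NP only and 27 in P only, and for these 67 the rule itself favours a difference. Gm15564, whose mean FPKM was 3356, was left out. The libraries came from SSP-profiling (scarce sample polysome profiling) of mouse oocytes at NEBD, the stage of nuclear envelope breakdown. Each profile was made from 200 denuded oocytes of CD1 mice 8 weeks old, primed with pregnant mare serum gonadotropin, released from IBMX for 180 min and treated with cycloheximide at 0.1 mg/mL for 10 min. Of the 10 gradient fractions, fractions 2 to 5 were pooled as the non-polysomal dataset (NP, n = 4 libraries) and fractions 6 to 10 as the polysomal dataset (P, n = 4 libraries). The 8 libraries therefore come from 4 profiles, each split into an NP and a P part. The labels number both datasets from 1 to 4 without saying that a number marks a profile. How many animals contributed to a library was not found in the labels or methods. Both datasets share strain, stage and cycloheximide, and the comparison asks whether a transcript sedimented with polysomes or above them in the gradient.

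A fully grown oocyte does not transcribe at this stage and works from stored maternal RNA, part of which is held in messenger ribonucleoproteins and part of which is bound by ribosomes. The Gm numbers cover loci of several kinds. Some are protein-coding genes of the oocyte, among them clusters of recently duplicated genes such as the PRAME and Oog families. Others are processed pseudogenes, which are intronless copies of an mRNA inserted elsewhere in the genome, or read-through models that join neighbouring genes. The rest are non-coding RNAs, some of them antisense to a coding gene. For a pseudogene, a read-through or an antisense model, a read may fit the model and another gene equally well.

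In GENCODE M21, an annotation of the GRCm38 build used by the authors, 205 of the 216 models were matched. The match was by identical position for 138, by symbol and overlap for 51, and by overlap of at least 80% alone for 16. The 205 comprised 69 antisense RNAs, 61 protein-coding genes, 35 processed pseudogenes, 19 processed transcripts, 17 lincRNAs and 4 other non-coding genes. The other 11 were not matched and were treated as a single exon. RefSeq lists 40 of the 216 under another symbol. Of the 216, 54 had a nearly identical copy, defined as another gene with at least 90% identity over at least 50% of the exon bases. Of the remainder, 35 shared exon bases with a gene on the same strand and 84 with a gene on the opposite strand only, leaving 43 with neither. The library kit does not mark the strand and the sources used here do not give how reads with several alignments were counted, so values of the first 3 classes may hold reads of the other gene and are uncertain as measures of the Gm locus itself.

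The sequences show how little separates some of these models from the gene they copy. Gm9846, a retrogene of the ribosomal protein gene Rps27 (RefSeq Rps27rt), Gm5514, a copy of the lactate dehydrogenase gene Ldhb (RefSeq Ldhb-ps), Gm5815, a copy of the glucocorticoid-induced gene Glcci1, and Gm5705, a copy of Eif4e1b (an oocyte member of the cap-binding eIF4E family), are shown because the results below turn on them. Each pair is a stretch of 90 bases inside the coding sequence of the named gene. Only stretches without gaps were considered, and no other such stretch of the pair holds more differences. Capitals mark the bases that differ. The Gm sequences lie on GRCm38 at chr9:114982618-114982707 (minus strand), chr19:21938232-21938321 (plus strand), chr17:58594112-58594201 (plus strand) and chr1:162628717-162628806 (minus strand). The sequences of the named genes are from GENCODE M21 transcripts.
Gm9846: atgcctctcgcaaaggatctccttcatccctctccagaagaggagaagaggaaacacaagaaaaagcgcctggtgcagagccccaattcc
Rps27: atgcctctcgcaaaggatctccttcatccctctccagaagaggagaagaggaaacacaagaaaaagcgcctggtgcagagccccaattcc
Gm5514: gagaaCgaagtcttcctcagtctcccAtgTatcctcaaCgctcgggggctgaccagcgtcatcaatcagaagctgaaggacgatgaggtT
Ldhb: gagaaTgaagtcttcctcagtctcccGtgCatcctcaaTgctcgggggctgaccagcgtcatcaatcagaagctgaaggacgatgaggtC
Gm5815: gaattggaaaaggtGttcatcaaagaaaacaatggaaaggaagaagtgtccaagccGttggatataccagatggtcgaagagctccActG
Glcci1: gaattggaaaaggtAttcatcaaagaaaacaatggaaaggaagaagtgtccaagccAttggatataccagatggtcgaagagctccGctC
Gm5705: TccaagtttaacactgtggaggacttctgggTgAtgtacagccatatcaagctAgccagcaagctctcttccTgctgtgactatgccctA
Eif4e1b: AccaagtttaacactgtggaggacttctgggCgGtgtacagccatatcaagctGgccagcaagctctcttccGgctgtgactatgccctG
Over the whole deposited span, Gm9846 had no difference from the Rps27 mRNA in 341 aligned bases. Gm5514 differed from Ldhb at 6 of 306 bases, with 147 bases as the longest identical run. Gm5815 differed from Glcci1 at 13 bases besides 3 gapped ones over 1188 aligned columns, with a longest identical run of 215 bases. Gm5705 was the most diverged of the 4, with 21 mismatches and 15 gapped columns over 726, and its longest identical run was 99 bases.

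The levels spanned 130-fold, from a mean of 10.03 FPKM for Gm10259 to 1306 FPKM for Gm97, with a median of 24.1 FPKM. The 15 highest models held 50.8% of the summed level of all 216, and 91 models lay between 10 and 20 FPKM. The 3 models just above the threshold were Gm10259 (10.03 FPKM), Gm12290 (10.12 FPKM) and Gm12784 (10.16 FPKM), and the 3 just below it were Gm7204 (9.798 FPKM), Gm15708 (9.771 FPKM) and Gm20517 (9.707 FPKM). The 216 models together made up between 2.72% and 3.37% of all FPKM in a library, with 2.92%, 3.00%, 2.93% and 3.26% in the NP libraries and 3.03%, 2.72%, 3.37% and 2.78% in the P libraries, which overlap.

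Low FPKM values lay on regular steps, set by gene length and library. The steps gave the scaling number of every library, 1299377 being the lowest (NP2) and 7594637 the highest (NP4), while the P libraries lay between 2677946 and 4699328. Summed over genes, the steps came to 1.34 (P2) to 1.78 (P4) times this number, so it is not their total. The reason was not tested. Steps were recovered for 215 of the 216 models, and over the 8 libraries a model rested on a median of 1037 steps, the lowest being 104 for Gm13840. FPKM is scaled within each library, so a difference in the total RNA of the datasets cannot be told apart from none. The 10 oocyte markers examined (among them Gdf9, Bmp15 and Zp1 to Zp3) all had a mean above 1 FPKM, and they summed to between 6187 and 32465 FPKM per library. Of 15 cumulus and granulosa markers, 6 were at 0 in every library, among them Foxl2, and the list summed to 15.3 to 94.4 FPKM in NP and 2.38 to 64.0 FPKM in P, mostly from Nr5a2 and Cyp19a1. Of 6 blood and immune markers, 5 were in the table, of which 4 were at 0 throughout and Cd68 reached 35.9 FPKM in NP and was at 0 in P.

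In the comparison of P with NP, no Gm model passed the test. Among the 14292 genes with a mean above 0.1 FPKM in at least 1 dataset, limma on log2(FPKM + 1) called 3 genes at a Benjamini-Hochberg adjusted p below 0.1 (0.0210% of those tested), and 0 of the 216 models, whose smallest adjusted p was 0.344. With 4 libraries a dataset and this spread, a missed threshold does not show that the datasets were alike. At an unadjusted p below 0.05, 28 models were higher in NP (13.0%, beside 9.47% of all genes tested and 11.0% of the genes with a mean above 10) and 2 were higher in P (0.926%, beside 0.476% and 0.869%). Models whose 4 NP libraries all lay above the 4 P libraries numbered 14 (6.48%, beside 5.92% of all genes tested and 5.62% of those with a mean above 10), and 1 model lay the other way (0.463%, beside 0.357% and 0.709%). Of the 28 models, 13 were among the 40 that passed the rule through NP only, as were 7 of the 14. These 7 include Gm11827, Gm13391, Gm14097, Gm14167, Gm15286 and Gm15954, which are described below. Of the 149 models with both means above 10, 15 (10.1%) were higher in NP and 2 (1.34%) higher in P at an unadjusted limma p below 0.05. All NP libraries lay above all P libraries in 7 of the 149 (4.70%), and the other way in 1 (0.671%). These shares are not above the 11.0% and 5.62% for NP, though those genes were not held to both means. With the replicate number as a block, 37 models were higher in NP and 7 higher in P at an unadjusted p below 0.05, and limma called 1 gene and 0 models. The shares of all genes at that unadjusted p are not given for the blocked fit, so its counts are not read as a result about the models. The log2 fold changes of the 216 models are given here as P over NP on the log2(FPKM + 1) scale. Their median was −0.57, beside −0.39 for all genes tested and −0.49 for the other genes with a mean above 10. The 149 models with both means above 10 had a median of −0.47. Of the 216, 147 (68.1%) were negative, beside 71.4% of all genes and 69.3% of those with a mean above 10.

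These directions depend on how the libraries are scaled. After each library was centred on its median, the median became 0.39 for the models and 0.57 for all genes. At an unadjusted limma p below 0.05, 18 of the 216 models were then higher in P and 6 higher in NP. Of the 14292 genes, 2719 (19.0%) were higher in P and 177 (1.24%) higher in NP. Quantile normalization gave 7 of the 216 models higher in P and 17 higher in NP, with a median of −0.18. Among the 14292 genes it gave 364 (2.55%) and 578 (4.04%), with a median of −0.02. The models' median was below that of all genes with each of these 3 scalings, but above it with a pseudocount of 0.1 (−0.74 beside −0.83) or when only genes with a mean above 1 FPKM were kept (−0.57 beside −0.58), and with voom (−0.60 beside −0.91). A test on the recovered steps (voom in limma), chosen after the data were seen, called 189 of 13011 genes (1.45%) and 4 of the models. These were Gm13391, Gm14097, Gm15286 and Gm16039, each higher in NP with an adjusted p between 0.0514 and 0.0901. Of these, Gm13391, Gm14097 and Gm15286 passed the rule through NP only, so the rule itself favoured that direction. At an unadjusted p below 0.05 voom gave 24 of 215 models higher in NP and 2 higher in P. Among the 13011 genes it tested, the counts were 1640 (12.6%) and 79 (0.607%).

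**Figure D1:**
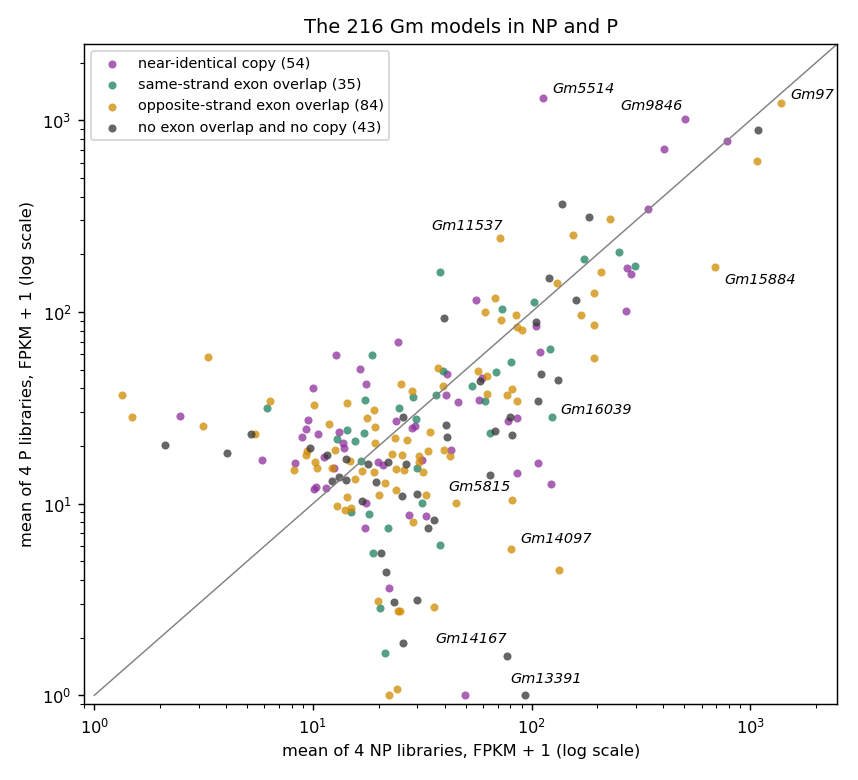
Mean FPKM + 1 of the 4 NP libraries (x axis) against the mean of the 4 P libraries (y axis), both on a log scale, for the 216 Gm models, coloured by what the model shares with other genes, with the line of equal means. The points scatter to both sides of the line, Gm5514 stands far above it at 112 FPKM in NP and 1302 FPKM in P, and Gm15884, Gm14097 and Gm13391 lie below it.

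The 15 most abundant models were of mixed kinds, and none of them passed the test. Gm97, Gm15698 and Gm813 are coding genes that have since been named. Gm97 (chr19:11697055-11711874), now Oosp3, belongs to a family of secreted oocyte proteins. Its FPKM was 1172, 979, 1281 and 2090 in NP replicates 1 to 4 and 711, 977, 1485 and 1756 in P, so that the datasets overlapped (log2 fold change −0.19 ± 0.53 SE, limma adjusted p = 0.886). Gm15698 (chr11:88964658-88966931), now Elobl, is an elongin B-like gene. It had 1010, 1048, 1080 and 1182 FPKM in NP and 1064, 773, 1003 and 697 FPKM in P, the steadiest values among the 15 highest models (log2 fold change −0.31 ± 0.48, limma adjusted p = 0.789). Gm813, now Ftdc1, encodes a protein with a ferritin domain. Its FPKM was 183, 124, 67.9 and 174 in NP and 607, 184, 88.8 and 570 in P. P1 and P4 stood far above the other 6 libraries, P2 was level with the highest NP library, and P3 lay among those of NP (log2 fold change 1.10 ± 0.69, limma adjusted p = 0.593).

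Models of the PRAME and Oog type, which encode leucine-rich repeat proteins in multi-copy clusters, likewise gave no call. Gm13023 (RefSeq Pramel25, 95.9% identical to Oog1) had a mean of 782 ± 197 FPKM in NP and 778 ± 468 FPKM in P (SD, n = 4 each). Gm13084 (RefSeq Pramel26, 97.9% identical to Oog2) had 404 ± 108 FPKM in NP and 711 ± 591 FPKM in P, where P1 alone reached 1577 FPKM. Its log2 fold change was 0.54, and ranged from 0.05 without P replicate 1 to 0.88 without P replicate 2. Gm2042 had 340 ± 119 FPKM in NP and 342 ± 33.8 FPKM in P. It was matched by overlap to the GENCODE model Gm10436, which is 98.6% identical to Oog1 over 83.0% of its exon bases. Gm13125 (RefSeq Pramel15) lay lower, with 158 ± 55.4 FPKM in NP and 115 ± 78.3 FPKM in P. The table lists 14 named genes of these families, of which 9 were tested, 0 had an unadjusted p below 0.05 in limma, and their median log2 fold change was 0.00. The copies did not all follow the gene they matched, since the correlation with Oog1 over the 8 libraries, given as a description, was −0.11 for Gm13023 and −0.27 for Gm2042, whereas that of Gm13084 with Oog2 was 0.85.

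**Figure D2:**
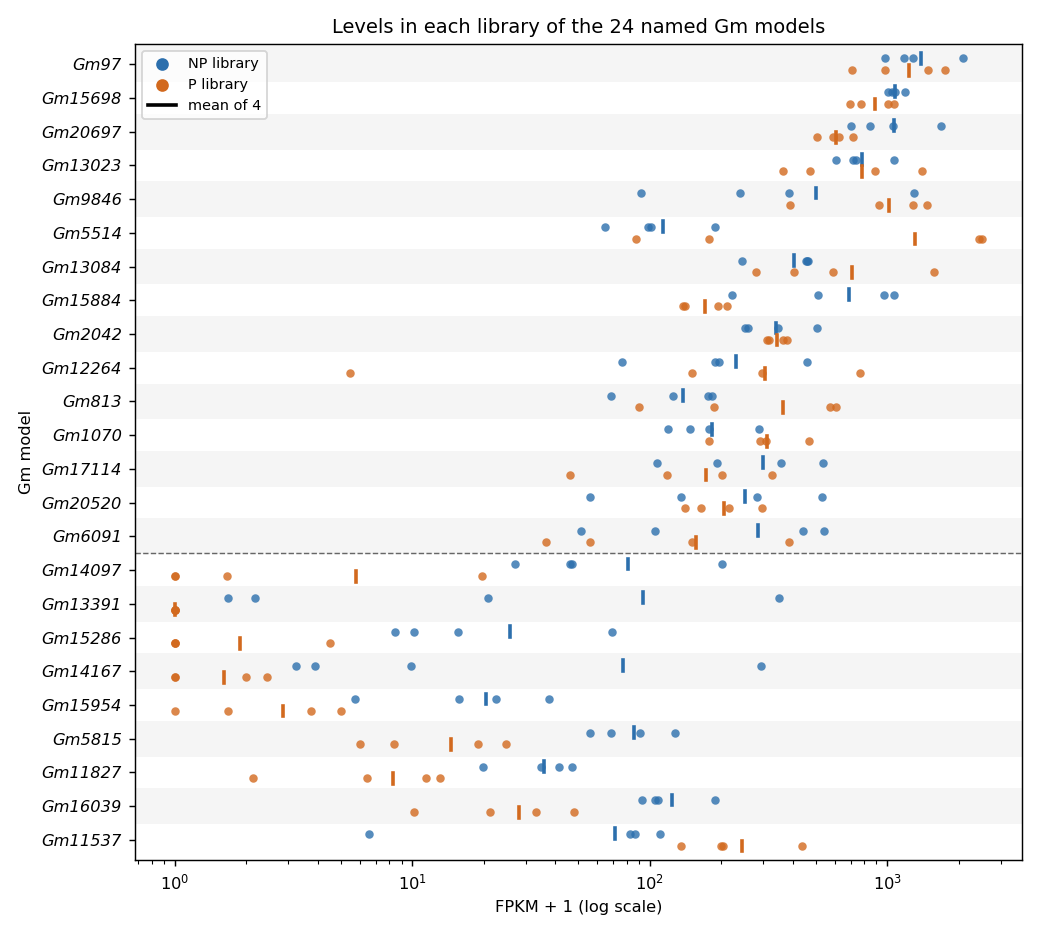
FPKM + 1 on a log scale (x axis) in each NP library (blue) and each P library (orange) of the 24 named Gm models (y axis), with short bars for the mean of 4. Above the dashed line are the 15 models with the highest mean over the 8 libraries, in order of level, and below it the 9 models chosen for an unadjusted p below 0.05 with no overlap between the datasets, of which 8 were higher in NP and Gm11537 was higher in P.

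Several copies of abundant mRNAs had fold changes close to those of the gene they copy. Gm5514 was one of the 2 models with an unadjusted p below 0.05 and a higher level in P. Its FPKM was 186, 101, 63.8 and 97.7 in NP and 2437, 176, 86.7 and 2507 in P, so that P1 and P4 stood far above every other library while P2 and P3 lay within the NP range (log2 fold change 2.40 ± 0.98, limma adjusted p = 0.455). Leaving out 1 library moved the log2 fold change both ways, from 1.68 without P replicate 4 and 1.69 without P replicate 1 to 2.95 without P replicate 2 and 3.29 without P replicate 3. Ldhb, a subunit of lactate dehydrogenase, had the same P libraries on top, with 7359 FPKM in P1 and 13461 FPKM in P4 beside 1348 and 1212 FPKM in P2 and P3 and 489 to 2631 FPKM in NP (log2 fold change 2.03 ± 0.83). In P3 the copy was at 86.7 FPKM against 1212 FPKM for Ldhb, and in P1 at 2437 against 7359 FPKM. The share of these reads that came from either locus was not tested.

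Gm9846 and Rps27, whose deposited sequences hold no difference, both had positive log2 fold changes. Gm9846 had 1290, 386, 239 and 90.7 FPKM in NP and 922, 1464, 1286 and 387 FPKM in P, with NP1 among the highest (log2 fold change 1.48 ± 0.76, limma adjusted p = 0.528). The log2 fold change was 0.88 without NP replicate 4 and 2.15 without NP replicate 1. Rps27 had 5631, 1781, 1096 and 268 FPKM in NP and 4457, 6928, 6591 and 2993 FPKM in P (log2 fold change 1.92 ± 0.79, limma adjusted p = 0.456). Over the 8 libraries their log2 values correlated at 0.98. Of 85 cytosolic ribosomal protein genes tested, 16 (18.8%, beside 9.47% of all genes) had an unadjusted p below 0.05 in limma with a higher level in NP and 2 (2.35%, beside 0.476%) with a higher level in P, and their median log2 fold change was −0.79, beside −0.39 for all genes. Gm5805, a copy of another such gene, Rps14, had a log2 fold change of −1.61, beside −1.22 for Rps14.

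Gm5815 and Gm16039, 2 of the models without overlap between the datasets, both trace to Glcci1. Gm5815 lies on chromosome 17 as an intronless copy, whereas Gm16039 (chr6:8259288-8597480) runs through Glcci1 itself, with 92.6% of its exon bases shared on the same strand, and is listed by RefSeq as Umad1. Gm5815 had 67.7, 89.6, 126 and 54.9 FPKM in NP and 7.36, 17.9, 23.7 and 5.04 FPKM in P (log2 fold change −2.72 ± 0.67, limma adjusted p = 0.344). Gm16039 had 104, 107, 187 and 91.7 FPKM in NP and 20.1, 32.3, 47.1 and 9.17 FPKM in P (log2 fold change −2.29 ± 0.63, limma adjusted p = 0.376). Glcci1 had 139, 144, 250 and 123 FPKM in NP and 26.8, 42.2, 60.9 and 11.7 FPKM in P (log2 fold change −2.34 ± 0.62, limma adjusted p = 0.376). All 3 ranked the libraries alike within each dataset, NP3 being the highest of NP and P3 the highest of P, and the log2 values of Gm5815 and Gm16039 correlated with those of Glcci1 at 0.99 and 1.0. They are therefore not independent observations of a higher level in NP.

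Gm5705 did not follow Eif4e1b. It had 69.2, 223, 90.6 and 39.6 FPKM in NP and 0.9, 10.1, 48.7 and 1.6 FPKM in P (log2 fold change −3.60 ± 0.98, limma adjusted p = 0.376), and only P3 reached into the NP range. Eif4e1b was at 240, 293, 292 and 825.5 FPKM in NP and 80.5, 209, 59.6 and 1162 FPKM in P (log2 fold change −0.96 ± 0.83, limma adjusted p = 0.667), highest in NP4 and P4, where Gm5705 was at 39.6 and 1.6 FPKM. Over the 8 libraries the correlation was −0.03. Gm4294 and Gm8420, both copies of the ribosomal protein gene Rpl15, also parted from it, with log2 fold changes of 1.15 and 1.06 beside −1.43 for Rpl15. In contrast, Gm10704 (RefSeq Rtraf-ps) and Gm6863, a copy of Naca, a subunit of the nascent polypeptide-associated complex, had log2 fold changes of −1.61 and −2.33 beside −1.31 for Rtraf and −1.91 for Naca.

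Across the 51 models whose copied gene was in the table, the log2 fold changes of the model and of the gene had the same sign in 43 and correlated at 0.74. This is a description only, because both members of a pair are measured in the same libraries and may share reads. The copied gene had the higher mean in 33 of the 51. Where it did not, the gap could be wide, as for Gm6091, a 165-base copy of a stretch of the thymidine kinase gene Tk1, at 440, 541, 104 and 50.3 FPKM in NP and 384, 54.8, 35.4 and 149 FPKM in P, while Tk1 did not exceed 30.8 FPKM.

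**Figure D3:**
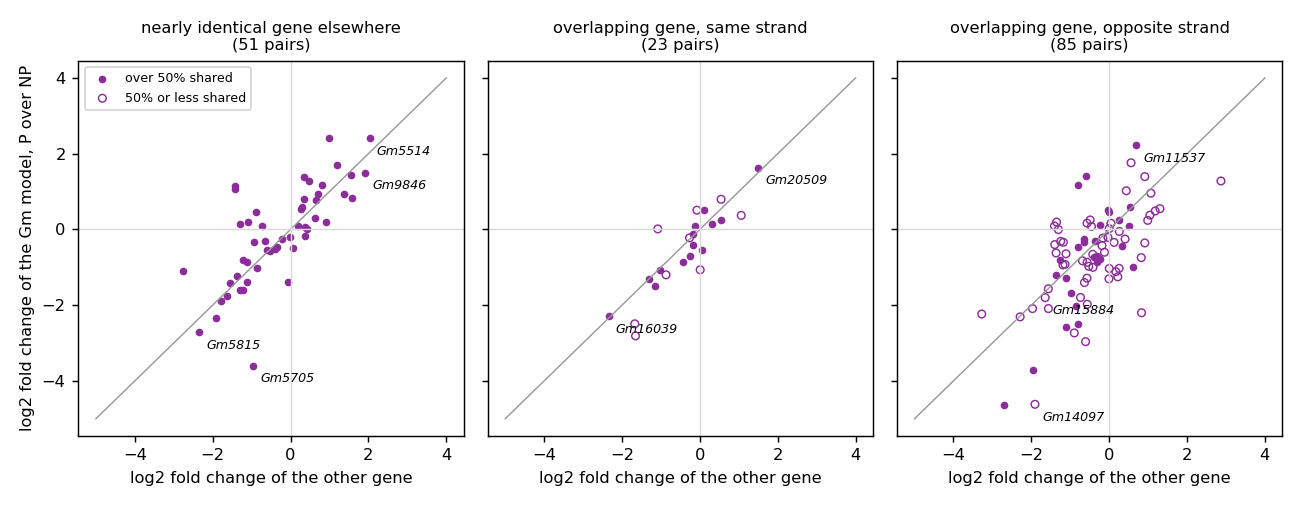
Log2 fold change of P over NP of the Gm model (y axis) against that of the other gene (x axis), for models with a nearly identical gene elsewhere (51 pairs), an overlapping gene on the same strand (23 pairs) or on the opposite strand (85 pairs), with the line of equality. Filled points share over 50% of the model's exon bases, and Gm5705 lies far below the line at −3.60 while its gene Eif4e1b is at −0.96.

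Some models that overlap a gene on the same strand had nearly its values. In all 23 tested pairs the fold changes had the same sign in 18 and correlated at 0.88. In the 14 tested pairs with over 50% of exon bases shared, 12 had the same sign and the fold changes correlated at 0.96, again over libraries and possibly reads in common. Gm20605 and Lrch4 had log2 fold changes of −1.30 and −1.31, and their levels correlated at 1.0. Gm20509 shares 77.8% of its exon bases with Khdc3, a component of the subcortical maternal complex of the oocyte. It had 36.4, 23.9, 20.6 and 67.4 FPKM in NP and 245, 95.9, 17.4 and 286 FPKM in P, with P3 below the NP range (log2 fold change 1.63 ± 0.83, limma adjusted p = 0.528), and Khdc3 had a log2 fold change of 1.5. Gm17114 and Gm20520 both share exon bases with Ccdc24 on the same strand and with Slc6a9, a glycine transporter gene, on the opposite one. Their means were 297 ± 190 and 250 ± 208 FPKM in NP and 172 ± 120 and 203 ± 69.9 FPKM in P (SD, n = 4), and neither passed the test. Gm15954, which shares 21.8% of its bases with Dgcr6, had 14.8, 21.5, 4.72 and 36.4 FPKM in NP and 2.74, 0.669, 0 and 4.01 FPKM in P. It passed the rule through NP only, and its datasets did not overlap, NP3 lying just above P4 (log2 fold change −2.81 ± 0.92, limma adjusted p = 0.405). Dgcr6 had a log2 fold change of −1.65.

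Models that share exon bases with a gene on the opposite strand made up 85 tested pairs, in which the fold changes had the same sign in 63 and correlated at 0.62. In the 28 of these with over 50% of exon bases shared, the sign was the same in 22 and the correlation was 0.75. No difference between same-strand and opposite-strand pairs was tested. Gm20697 lies entirely within an exon of Tcl1, an Akt coactivator gene that is abundant in oocytes. It had 1053, 1680, 704 and 845 FPKM in NP and 714, 506, 627 and 592 FPKM in P, NP3 being the only NP library below P1 (log2 fold change −0.74 ± 0.51, limma adjusted p = 0.627). Tcl1 had a log2 fold change of −0.38 and its levels correlated with those of Gm20697 at 0.90. Gm15884 (chr6:124715573-124718831, minus strand) is antisense to the prohibitin gene Phb2. Its 967, 1069, 221 and 510 FPKM in NP all lay above its 193, 139, 211 and 137 FPKM in P, although NP3 exceeded P3 by little (log2 fold change −1.80 ± 0.59, limma adjusted p = 0.407). Phb2 had 860, 925.5, 249 and 400 FPKM in NP and 217, 222, 137 and 123.5 FPKM in P (log2 fold change −1.64 ± 0.58), and only 21.9% of the exon bases of Gm15884 lie opposite those of Phb2. Gm12264, antisense to the myosin phosphatase gene Mprip, ranged from 4.48 FPKM in P4 to 767 FPKM in P3, and without P replicate 4 its log2 fold change turned from −0.69 to 0.78.

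Gm11537 (chr11:96766802-96768269) was the single model with all P libraries above all NP libraries. It is antisense to the sorting nexin gene Snx11, with 86.6% of its exon bases opposite it. Its FPKM was 109, 81.7, 5.56 and 85.7 in NP and 135, 198, 203 and 436 in P (log2 fold change 2.22 ± 0.84, limma adjusted p = 0.421). NP3 was far below the other NP libraries, and without NP replicate 3 the log2 fold change was 1.26. Snx11 had 65.6, 59.6, 20.8 and 177 FPKM in NP and 90.1, 56.6, 55.3 and 358 FPKM in P, with overlap between the datasets (log2 fold change 0.69 ± 0.77, limma adjusted p = 0.72). Gm14097, which passed the rule through NP only, had the most negative log2 fold change among the models without overlap. It shares 10.2% of its exon bases with Shld1, a subunit of the shieldin complex of DNA repair. It had 45.3, 45.8, 26.0 and 201 FPKM in NP, 18.6 and 0.664 FPKM in P1 and P2, and was listed at 0 in P3 and P4 (log2 fold change −4.62 ± 1.03, limma adjusted p = 0.344). Without NP replicate 4 the log2 fold change was −4.02, and without P replicate 1 it was −5.63 with an adjusted p of 0.0811. Where libraries are at or near 0 the pseudocount sets the fold, and with 0.1 in place of 1 it was −6.55. Gm11175, which lies opposite an exon of Jund, had a like log2 fold change of −4.65 with overlap, at 277, 221, 29.3 and 2.2 FPKM in NP, 14.1 FPKM in P1 and 0 in the other P libraries.

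The 43 models without shared exon bases and without a copy are the least exposed to reads of another gene. Their median log2 fold change was −1.04, and 36 of the 43 were negative. At an unadjusted p below 0.05 in limma, 10 were higher in NP (23.3%, beside 9.47% of all genes tested) and 0 in P (beside 0.476%). In 6 (14.0%, beside 5.92%), all NP libraries lay above all P libraries. Of the 43, 11 passed the rule with a mean above 10 in NP only and 4 in P only, and the 11 hold 5 of the 10 and 4 of the 6, so these counts cannot be read against those of all genes. The 28 with both means above 10 had a median of −0.79, beside −0.47 for the 149 models of all classes with both means above 10. Of these 28, 5 (17.9%) were higher in NP at an unadjusted limma p below 0.05, beside 11.0% of the genes with a mean above 10. In 2 (7.14%, beside 5.62%) all NP libraries lay above all P libraries. The 11.0% and 5.62% are of genes chosen by the mean over all libraries and not held to both means, so the limits differ. None of the 43 passed the adjusted test. The other 3 classes had medians of −0.08 for copies, −0.71 for same-strand and −0.61 for opposite-strand overlap. That the classes differ was not tested. Coding genes of the oocyte such as Elobl and Ftdc1 belong to this class too. Of its 11 lincRNAs, 4 (36.4%, beside 9.47% of all genes tested) were higher in NP at an unadjusted limma p below 0.05. In 3 (27.3%, beside 5.92%) all NP libraries lay above all P libraries. Both counts include Gm13391 and Gm11827, which passed the rule through NP only, so they are partly set by the rule.

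**Figure D4:**
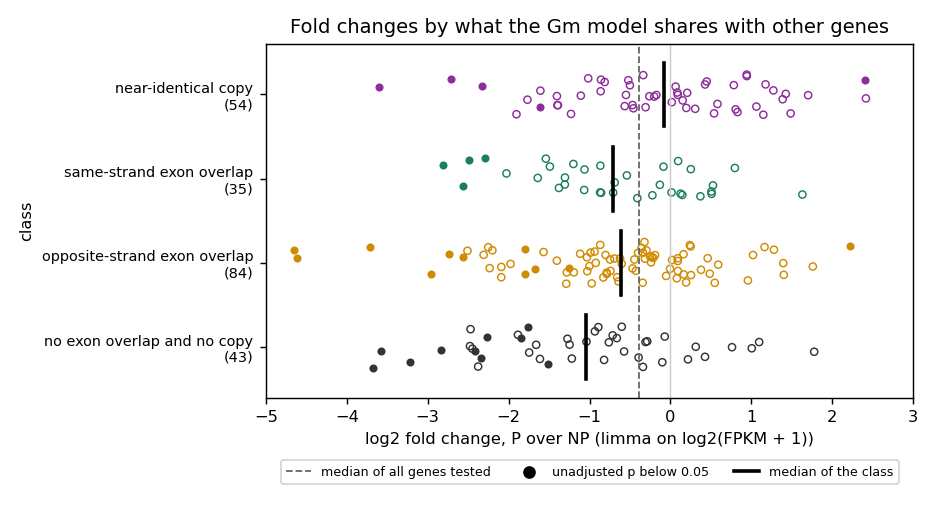
Log2 fold change of P over NP on the log2(FPKM + 1) scale (x axis) of each Gm model in the 4 classes (y axis, number of models in parentheses, points spread vertically for display), with filled points for an unadjusted limma p below 0.05, black bars for class medians and a dashed line for the median of all genes tested. The class without overlap or copy has its median at −1.04, and the dashed line is at −0.39.

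Gm11827 (chr4:11122805-11126998) is a lincRNA of this class that passed the rule through NP only. It was at 33.7, 40.5, 18.9 and 46.1 FPKM in NP and at 10.4, 1.14, 5.43 and 12.0 FPKM in P, with no overlap (log2 fold change −2.34 ± 0.77, limma adjusted p = 0.405). Gm839 (chr6:89211165-89216237) had 74.3, 78.5, 115 and 46.1 FPKM in NP and 35.9, 24.5, 13.3 and 35.7 FPKM in P, also without overlap (log2 fold change −1.51 ± 0.60, limma adjusted p = 0.448). Gm1965, another lincRNA of chromosome 6, overlapped widely, at 103 ± 41.5 FPKM in NP and 87.3 ± 46.5 FPKM in P (SD, n = 4). The most abundant lincRNA, Gm1070 (chr6:71293765-71302718), had 119, 147, 286 and 176 FPKM in NP and 308, 176, 290 and 467 FPKM in P. Here 3 P libraries lay above all NP libraries and P2 among them (log2 fold change 0.76 ± 0.54, limma adjusted p = 0.637).

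In 3 further models of this class without overlap, all of which passed the rule through NP only, NP replicate 4 stood far above the other libraries. Gm13391, a lincRNA, had 0.670, 19.8, 1.18 and 347 FPKM in NP and was listed at 0 in all 4 P libraries, so no fold is given. Gm14167, annotated as antisense, had 2.89, 8.89, 2.22 and 292 FPKM in NP and at most 1.44 FPKM in P. Its log2 fold change went from −3.22 to −1.75 without NP replicate 4, and to −5.01 with a pseudocount of 0.1. Gm15286, a processed transcript, had 7.42, 9.11, 14.5 and 68.2 FPKM in NP, 3.49 FPKM in P1 and 0 in the other P libraries (log2 fold change −3.58 ± 0.97, limma adjusted p = 0.376), and −2.91 without NP replicate 4 or −6.05 with a pseudocount of 0.1. Gm4862, a processed pseudogene without a copy past the limits used, had 48.1 to 89.4 FPKM in NP and 0.5 to 45.6 FPKM in P (log2 fold change −2.26 ± 0.94, limma adjusted p = 0.464).

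A single library carried many of the models over the threshold. For 43 of the 216, 1 library held over 50% of the summed FPKM of all 8, and for 18 it held over 75%. NP4 was that library for 17 of the 43 and P4 for 9. Over all 216, NP4 was the highest library for 48 models and P4 for 32, beside 17 to 30 for the others. The same counts over all genes are not given, and a rule on the mean admits models that rest on 1 library. These counts are therefore not read as particular to the Gm models. Gm10923, a copy of Rpl23a, had 195 FPKM in NP3 and 0 in the other 7 libraries, while Gm13402 and Gm20463 had 143 and 109 FPKM in P4 and below 1 FPKM elsewhere. Gm10320, a copy of the translocon gene Sec61b, had 468 FPKM in NP4 and at most 36.1 FPKM elsewhere. Leaving out each model's highest library would bring 60 of the 216 to a mean of 10 or less, and 153 (70.8%) had a median over the 8 libraries above 10. Only 51 models exceeded 10 FPKM in all 8 libraries, and 63 were at 0 in at least 1. The number at 0 was 8, 6, 1 and 9 in the NP libraries and 14, 28, 39 and 32 in the P libraries, so each P library had more than each NP library. The same order held over the whole table and is not particular to the models. Genes above 0 numbered 11703 to 13753 in the NP libraries and 9139 to 11339 in the P libraries. The means of both datasets were above 10 in 149 models.

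**Figure D5:**
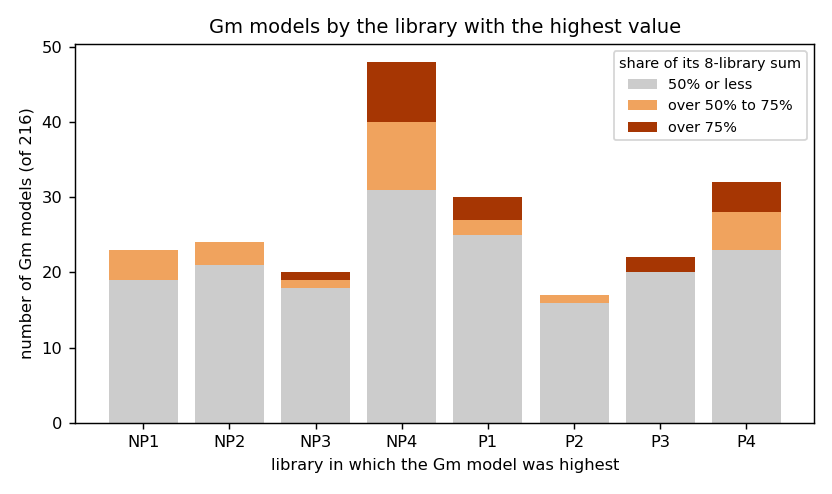
Number of Gm models (y axis) by the library in which the model had its highest FPKM (x axis), with bar segments for the share of the model's sum over 8 libraries that this library held. NP4 was the highest library for 48 models, and in 8 of these it held over 75% of the sum.

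Other genes of the table give the values to set beside these. Of 277 autosomal RIKEN models with a mean above 10 FPKM, 40 (14.4%) were higher in NP and 2 (0.722%) higher in P at an unadjusted p below 0.05 in limma, with a median log2 fold change of −0.59. Of 5012 other autosomal genes above 10 FPKM, 540 (10.8%) were higher in NP and 43 (0.858%) higher in P, with a median of −0.49. Below the threshold, 839 Gm models were tested, with 53 (6.32%) higher in NP, 6 (0.715%) higher in P and a median of −0.24. These lists differ in level, which moves fold changes on the log2(FPKM + 1) scale, and no difference between them was tested.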

How the data were processed

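Reads were trimmed by the authors (Trim Galore 0.4.1), aligned with HISAT2 2.0.5 against build GRCm38 and summarised per gene in Seqmonk. The deposited table holds the resulting FPKM values on a linear scale, 1 per gene and library. Ribosomal RNA was depleted and cDNA was primed with oligo(dT) and random primers, amplified whole and tagmented, so values describe amplified cDNA without molecular identifiers. The authors' own ratio columns and DESeq2 results (fold changes and p-values) were not used. Libraries were grouped by title, and the study describes the profiles as independent biological replicates.

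The models were selected from the FPKM table, and the models and gene lists were chosen with earlier results of these data known. P was compared with NP with limma 3.58.1 in R 4.3.3 (lmFit, eBayes with a trend, 2-sided) on log2(FPKM + 1). The fit kept the 14292 genes whose mean passed 0.1 FPKM in NP or in P, p-values were adjusted over all of them by the Benjamini-Hochberg method, and 0.1 was the threshold. The script was tested on simulated data. Models were placed on GENCODE M21 and RefSeq, and copies were searched with blastn 2.17.0. Named were the 15 models with the highest mean, and in each direction up to 8 of the most changed models that had an unadjusted p below 0.05 and no overlap between the datasets, the 3 models on either side of the threshold, and the genes that share sequence with a named model. Others, such as Gm5705, Gm20509, Gm11175, Gm839 and the models resting on 1 library, were chosen after their values were seen. A value counted as whole when it lay within 0.01 steps, widened by 2e-06 per step, of an integer, with the annotated exon length for 132 models and a length searched from 100 to 30000 bases for 83. Alternatives were another pseudocount, other filters, quantile normalization, median centring, a replicate block, each library left out, and voom on the steps.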

Additional observations from a re-analysis of the deposited data

Results flagged for a closer look

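Within 4 libraries of a dataset, a library was singled out where its gap to the nearest of the other 3 passed Dixon's 95% critical value as a share of the whole range. Chance passes this limit in about 1 in 20 groups of normally distributed values. Here it was applied to FPKM on a linear scale, with values at 0 among them, so that rate does not carry over. Some of the named models were also chosen by their values. Of 47 groups of the 24 named models, 8 passed it. NP4 was the library in 5 of these. It was high for Gm13391 (347 FPKM), Gm14167 (292 FPKM), Gm14097 (201 FPKM) and Gm15286 (68.2 FPKM), and low for Gm13084 (242 FPKM, beside 454 to 464 FPKM in the other NP libraries). NP3 was high for Gm16039 (187 FPKM). P1 was high for Gm14097 (18.6 FPKM) and Gm15286 (3.49 FPKM), whose other P libraries were at or below 0.664 FPKM. Over all the models, 84 of 429 groups with any spread (19.6%) passed the limit, with many values at 0 among them.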

How the results depend on the processing

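The adjusted count of 0 models held under each alternative listed under the methods except leaving out P replicate 1, which gave 1 (Gm14097), and voom, chosen after the data were seen, which gave 4. Of all genes, 3 were called at first, 5 with a pseudocount of 0.1 or a mean above 1 FPKM, 0 without a filter, with quantile normalization or with median centring, 1 with the replicate block and 189 with voom. Leaving out 1 library gave 0 to 5 genes and 0 to 1 models. Models higher in P at an unadjusted p below 0.05 numbered 2, and 1 without a filter, 7 with quantile normalization, 18 with median centring, 7 with the block, and 0 to 6 with 1 library left out (0 without NP replicate 3, 6 without P replicate 3 or P replicate 4). Models higher in NP numbered 28, and 17 with quantile normalization and 6 with median centring, beside 19 to 31 with 1 library left out. Models with all P above all NP libraries numbered 1, and 2 with quantile normalization, 9 with median centring and 1 to 7 with 1 library left out. The other way there were 14, and 9, 3 and 15 to 28, where fewer libraries make separation easier. Shares of all genes at the unadjusted p are given only for the first fit, quantile normalization, median centring and voom. Shares of all genes without overlap are given only for the first fit. The counts without such a share are therefore not read as a result about the models. The median log2 fold change was −0.57, and −0.18 with quantile normalization, 0.39 with median centring and −0.76 to −0.41 with 1 library left out. Among the 43 models without overlap or copy the 4 counts, in the same order, were 0, 10, 0 and 6 and the median was −1.04, the list being shorter.

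Among the 24 named models, 338 of 360 comparisons with a setting kept the sign and the side of the threshold. Median centring turned Gm97 to 0.77, Gm15698 to 0.65, Gm20697 to 0.22, Gm13023 to 0.78, Gm12264 to 0.26, Gm17114 to 0.09 and Gm6091 to 0.09, and voom turned Gm2042 to −0.03. Leaving out 1 library turned 5 models, with ranges of −0.39 to 0.04 for Gm97, −0.52 to 0.12 for Gm13023, −0.06 to 0.27 for Gm2042, −1.60 to 0.78 for Gm12264 and −0.48 to 0.60 for Gm20520.

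Each profile was split into NP and P, but the labels do not say that a replicate number marks a profile. Deviations of same-numbered libraries correlated at 0.0518 to 0.251 and those of other numbers at −0.135 to 0.136 over 11374 genes, and 7 of 8 libraries correlated best with their own number. With the replicate block, 7 models were higher in P and 37 higher in NP at an unadjusted p below 0.05, and 0 models and 1 gene were called. The shares of all genes at that unadjusted p are not given for this fit, so the 7 and 37 are not read as a result about the models. The causes were not tested. Of the model values, 80.5% rested on more than 10 steps and the rest, values at 0 included, on 10 or fewer.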
